A study of Mus musculus with 20 samples.

Results

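The genotype difference described here is the one between *Ad-Tmem120a-/-* mice and control littermates that is shared by low fat diet (LFD) and high fat diet (HFD), measured by RNA sequencing in the iWAT (inguinal white adipose tissue, a subcutaneous depot). All 20 libraries of the 20 in the series were used, 10 from knockout and 10 from control mice, with 5 of each genotype on each diet and diet entered as a covariate. All mice were female, labelled C57BL/6 and 6 months old after 15 weeks on LFD (10.5% fat) or HFD (58% fat), and were fasted before dissection. The control littermates were *Tmem120a fl/fl* mice without a Cre allele, and the knockout mice were *Tmem120a fl/fl* mice that also carried *Adipoq-Cre*, so every group carried the floxed allele and the loss of *Tmem120a* cannot be told apart from the presence of the Cre transgene. The floxed line came from C57BL/6N and the Cre line from C57BL/6J mice. The *Adipoq* promoter drives Cre in mature adipocytes, so cells that are not adipocytes keep the gene, and in whole tissue fewer cells of a type and less RNA per cell cannot be told apart.

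TMEM120A is a transmembrane protein of the nuclear envelope and endoplasmic reticulum that is abundant in fat, and *Tmem120b* encodes its paralog. Proteins of the inner nuclear membrane can hold chromatin at the nuclear periphery. White adipocytes store triglyceride in a large lipid droplet coated by perilipins and CIDE proteins, and release it by lipolysis when fuel is needed.

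Cre removes exons 2 and 3 of *Tmem120a*, shown because they are the stretch of sequence that separates the genotypes by design. In the full-length transcript (ENSMUST00000043378, 12 exons, minus strand of mm9) both exons are coding throughout. They are written 5′ to 3′ in lower case, exon 2 from chr5:136218151-136218269 and exon 3 from chr5:136217836-136217952.
Tmem120a exon 2: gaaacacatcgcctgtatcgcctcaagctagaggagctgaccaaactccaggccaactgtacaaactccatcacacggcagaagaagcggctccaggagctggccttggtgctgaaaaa
Tmem120a exon 3: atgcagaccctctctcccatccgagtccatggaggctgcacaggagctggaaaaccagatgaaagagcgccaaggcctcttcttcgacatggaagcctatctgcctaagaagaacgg
The exons hold 119 and 117 coding bases, 236 together, which leaves a remainder of 2 when divided by 3. The deposited values are per transcript and do not resolve single exons.

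Each library held between 54605101 and 92387737 estimated counts, and replicates of a group correlated with Pearson's r between 0.942 and 0.984 across genes on log2(TPM + 1). *Adipoq*, the defining adipocyte gene, was at 638 TPM or more in every library. Libraries that stood apart are described with the genes they touch. Knockout LFD replicate 7 and knockout HFD replicate 18 held most of the hair keratin transcripts, and control LFD replicate 5 held the most transcripts of muscle fibres.

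Across both diets 6 genes were called, 4 higher (0.0257%) and 2 lower (0.0128%) in the knockout mice, out of 15574 genes tested (0.0385% in all, edgeR's quasi-likelihood test with diet as a covariate, Benjamini-Hochberg adjusted p under 0.1). The genes were *Tmem120a* and *Gm12886*, which fell, and *Gm11868*, *Zfp949*, *Eif4a2* and *Clca2*, which rose. All 6 had the same direction on each diet, and no called gene had opposite directions. An unadjusted p under 0.05 was reached by 1159 genes (7.44%), 647 higher and 512 lower. Fitted separately by diet in a model with a mean for each group, 3 genes were called on HFD (0.0193%; *Gm11868*, *Eif4a2* and *Clca2*) and 2 on LFD (0.0128%; *Gm11868* and *Zfp949*). No gene was called for a difference of the genotype effect between the diets with edgeR, where 560 genes had an unadjusted p under 0.05, while DESeq2 called 17. DESeq2 on the same counts called 32 genes across both diets, 22 higher and 10 lower, among them all 6.

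**Figure D1:**
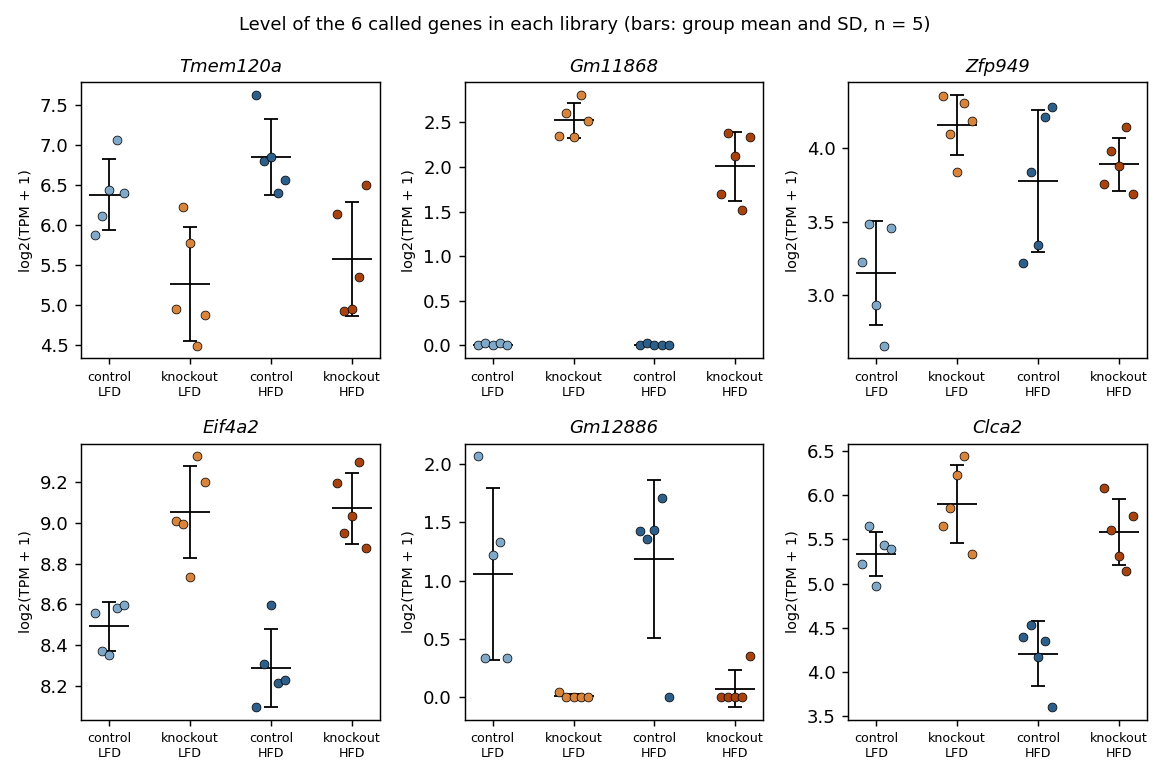
Level of each called gene as log2(TPM + 1) in each of the 20 libraries, where a point is 1 library and the bars give the group mean and SD (n = 5 libraries). *Gm11868* and *Eif4a2* do not overlap between genotypes on either diet, while *Zfp949* overlaps on HFD, *Clca2* on LFD and *Tmem120a* on both.

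The *Tmem120a* signal was lower in the knockout mice but not absent (ENSMUSG00000039886, chr5:136211355-136220141, minus strand). In control mice the gene lay between 57.9 and 132 TPM on LFD and between 83.3 and 196 TPM on HFD. In knockout mice it lay between 21.5 and 74.0 TPM on LFD and between 29.5 and 89.7 TPM on HFD. The genotypes overlapped on each diet. The means were 85.4 ± 28.4 against 41.5 ± 21.9 TPM on LFD and 119 ± 44.5 against 51.6 ± 26.7 TPM on HFD (control against knockout, SD, n = 5). Over both diets the fitted log2 fold change came to -1.64 (SE 0.237, edgeR adjusted p = 0.004522), with -1.61 on LFD and -1.68 on HFD. On the log2(TPM + 1) scale the mean difference over the diets was -1.19 (exact permutation test within diets, p = 0.0004409).

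Its transcripts, singled out after their values were seen, moved in opposite directions and separated the genotypes fully. The full-length transcript was at 49.8, 66.8, 80.8, 84.5 and 129 TPM in controls against 7.75, 19.4, 20.4, 26.5 and 36.2 TPM in knockouts on LFD. On HFD it was at 79.4, 93.6, 109, 111 and 187 TPM in controls against 18.9, 19.7, 20.8, 31.7 and 34.9 TPM in knockout mice. Every knockout library lay below every control library of its diet, and the mean difference was -2.04 on the log2(TPM + 1) scale (exact permutation test, p = 3.149e-05, the smallest that 63504 assignments allow). The short transcript (ENSMUST00000141779), a retained-intron model of the 3′ exons that lacks exons 2 and 3, was at 0 to 2.39 TPM in controls against 8.77 to 36.5 TPM in knockouts on LFD, and at 0 to 7.51 against 8.70 to 52.9 TPM on HFD. Its mean difference was 3.31 on the same scale, with no overlap on either diet (exact permutation test, p = 3.149e-05). The p-values of both transcripts are not adjusted for their choice after the values were seen. With transcript-length offsets, which weigh such a shift between models of unequal length, the gene was not called, nor was it in the limma fits on TPM.

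*Tmem120b*, the paralog, did not pass the test. It averaged 45.3 ± 16.6 TPM in controls against 52.6 ± 23.4 TPM in knockouts on LFD, and 38.0 ± 11.4 against 33.9 ± 13.2 TPM on HFD (SD, n = 5). The fit gave it a log2 fold change of -0.09 (SE 0.255, edgeR adjusted p = 0.9448) which turned to 0.09 without control LFD replicate 4 and to 0.05 without control HFD replicate 11. A p that misses the limit does not show equal levels.

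*Gm11868*, a pseudogene model on another chromosome (ENSMUSG00000050550, chr4:18771349-18772928, minus strand), had the smallest p of all genes tested. Its estimated counts were 0 or 1 in each of the 10 control libraries. They were 218, 267, 278, 289 and 306 in knockout mice on LFD and 112, 161, 217, 220 and 245 in knockout mice on HFD. All 10 knockout libraries therefore held the transcript and all 10 control libraries were at the floor of 3 counts or below. Against that floor, taken per library, the transcript was at least 102-fold higher in the knockout mice on LFD and at least 65.1-fold higher on HFD. The adjusted p was 2.757e-10 (edgeR), and the gene was called on each diet and in each of the 20 fits that left out 1 library.

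The model of *Gm11868* resembles the spliced transcript of *Cyb5r4*, a cytochrome b5 reductase gene (ENSMUSG00000032872). A local alignment of the longest models covered 73.4% of the 1578 bases of *Gm11868* at 97.7% identity, with 18 mismatches and 9 gap columns over 1168 columns. The gapless 60-base stretch with most mismatches is shown because reads tell the genes apart over such positions or over the part that did not align. The letters are mm9, 5′ to 3′, with the 3 mismatched bases in capitals, from chr4:18772670-18772729 (minus strand) for *Gm11868* and from exons within chr9:86921906-86924368 (plus strand) for *Cyb5r4*.
Gm11868: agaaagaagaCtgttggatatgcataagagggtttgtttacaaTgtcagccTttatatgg
Cyb5r4: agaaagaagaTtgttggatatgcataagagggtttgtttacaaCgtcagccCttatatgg
*Cyb5r4* itself averaged 28.1 ± 1.57 TPM in controls against 32.8 ± 7.10 TPM in knockouts on LFD, and 34.2 ± 4.35 against 33.5 ± 3.30 TPM on HFD (SD, n = 5). The fit gave it a log2 fold change of -0.16 (SE 0.0648, edgeR adjusted p = 0.6) which changed sign, to 0.08, on log2(TPM + 1). It was examined after its values were seen, and since the counting assigns reads between near-identical sequences, the level of *Gm11868* is uncertain while its presence in 10 of 10 knockout and its counts of at most 1 in 10 of 10 control libraries are as deposited.

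*Zfp949*, a zinc finger protein gene (ENSMUSG00000032425, chr9:88442858-88465924, plus strand), rose over both diets. It was at 5.30, 6.65, 8.35, 9.98 and 10.2 TPM in controls against 13.3, 16.1, 17.2, 18.8 and 19.5 TPM in knockouts on LFD. On HFD it was at 8.31, 9.12, 13.3, 17.5 and 18.4 TPM in controls against 11.9, 12.5, 13.7, 14.8 and 16.7 TPM in knockout mice. The genotypes were apart on LFD and overlapped on HFD. The fit over both diets gave a log2 fold change of 0.90 (SE 0.131, edgeR adjusted p = 0.004522), with 1.18 on LFD and 0.62 on HFD (adjusted p for the difference 0.9999, edgeR). On log2(TPM + 1) the mean difference was 0.56, made up of 1.0 on LFD and 0.11 on HFD (exact permutation test, p = 0.007559). With transcript-length offsets and in both limma fits on TPM it was not called.

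The transcripts of *Zfp949*, singled out after their values were seen, parted more than the gene. The 5-exon transcript (ENSMUST00000161458) was at 0, 0, 0.233, 0.431 and 1.21 TPM in controls against 10.1, 10.2, 12.4, 13.4 and 16.7 TPM in knockouts on LFD. On HFD it was at 0, 0.247, 0.280, 1.35 and 5.01 TPM in controls against 7.46, 8.21, 8.29, 11.4 and 11.5 TPM in knockout mice. The groups did not overlap on either diet (mean difference 2.90 on log2(TPM + 1), exact permutation test, p = 3.149e-05). The 6-exon transcript (ENSMUST00000162827) has the same coding bases and an additional noncoding second exon at chr9:88447554-88447699. It averaged 5.17 ± 1.48 TPM in controls against 2.36 ± 0.851 TPM in knockouts on LFD, and 5.15 ± 2.05 against 1.88 ± 1.59 TPM on HFD (SD, n = 5), a mean difference of -1.07 on the same scale (exact permutation test, p = 0.0008188). The 2 transcripts thus moved in opposite directions on both diets. Their p-values are not adjusted for the choice among 96533 deposited transcripts. How many of all transcripts had no overlap between the genotypes was not counted.

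**Figure D2:**
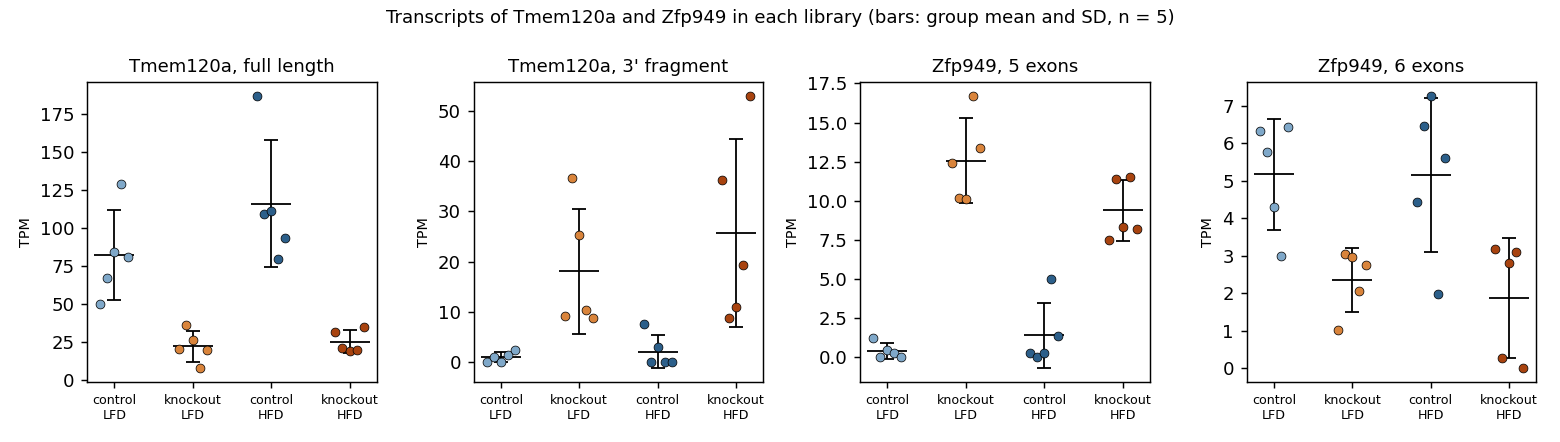
TPM of a full-length and a 3′ transcript of *Tmem120a* and of the 5-exon and 6-exon transcripts of *Zfp949* in each of the 20 libraries, with the group mean and SD (n = 5). The full-length *Tmem120a* transcript is below, and the 3′ *Tmem120a* and 5-exon *Zfp949* transcripts are above, all control libraries of the same diet in all knockout libraries.

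*Eif4a2*, which encodes an RNA helicase of translation initiation (ENSMUSG00000022884, chr16:23107517-23114209, plus strand), rose. It was at 326, 331, 376, 383 and 386 TPM in controls against 425, 509, 514, 587 and 640 TPM in knockouts on LFD. On HFD it was at 273, 296, 299, 316 and 387 TPM in controls against 469, 493, 523, 584 and 627 TPM in knockouts. No knockout library fell into the control range of TPM on either diet, while in CPM (estimated counts relative to the library total, scaled by the trimmed mean of M-values, not corrected for length) knockout LFD replicate 8, at 348, lay below control LFD replicate 4, at 388. The fit over both diets gave a log2 fold change of 0.63 (SE 0.0998, edgeR adjusted p = 0.01194), or 1.55-fold, with 0.47 on LFD and 0.79 on HFD. The call was lost when diet was left out of the model.

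The gene next to *Eif4a2*, *Rfc4*, a subunit of the clamp loader of DNA replication (chr16:23114016-23127810, minus strand), overlaps its 3′ end by 194 bases. *Rfc4* was at 7.70, 8.04, 8.78, 9.60 and 9.85 TPM in controls against 13.2, 14, 15.5, 15.8 and 19 TPM in knockouts on LFD. On HFD it was at 7.13, 8.50, 10.5, 10.6 and 11.6 TPM in controls against 13, 13.1, 14.1, 15.7 and 21.4 TPM in knockout mice. In TPM the genotypes were apart on each diet (exact permutation test, p = 3.149e-05). In CPM they overlapped on HFD, where knockout HFD replicate 21, at 6.14, lay below control HFD replicate 14, at 6.35. The log2 fold change of *Rfc4* was 0.69 and was not called (standard error 0.139, adjusted p = 0.1543, edgeR). Reads over the overlap are assigned by strand only where the counting used it, which the sources used here do not state for this table. *SNORA4* (ENSMUSG00000065208), a small nucleolar RNA gene within *Eif4a2* chosen after its values were seen, had a log2 fold change of 1.10 (adjusted p = 0.3794, edgeR). *Adipoq* lies 32.4 kb from *Eif4a2* and 18.8 kb from *Rfc4*, and its promoter is the one that drives Cre. *Adipoq* averaged 904 ± 192 TPM in controls against 824 ± 132 TPM in knockouts on LFD, and 1235 ± 95.3 against 1241 ± 207 TPM on HFD (SD, n = 5), and its log2 fold change came to -0.11 (adjusted p = 0.8393, edgeR). Of the 13 genes tested within 1 Mb of *Adipoq*, *Eif4a2* was the one called.

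A set of 5 genes among all those tested had no overlap between the genotypes in TPM on both diets, all of them higher in the knockout mice (5 of 15574, 0.0321%). Besides *Gm11868*, *Eif4a2* and *Rfc4* these were *Ptplad1*, an enzyme gene of the very long chain fatty acid cycle, and *Pus7l*, a pseudouridine synthase gene, both named after their values were seen. *Ptplad1* averaged 21.9 ± 2.42 TPM in controls against 27.8 ± 2.51 TPM in knockouts on LFD, and 20.9 ± 2.05 against 27.5 ± 2.5 TPM on HFD (log2 fold change 0.31, adjusted p = 0.3496, edgeR). *Pus7l* averaged 1.57 ± 0.205 against 3.34 ± 1.25 TPM on LFD and 1.45 ± 0.314 against 2.35 ± 0.432 TPM on HFD (log2 fold change 0.47, adjusted p = 0.5021, edgeR). Neither was called, and for *Pus7l* the nearest libraries on LFD differed by less than the rounding of these values.

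*Gm12886*, a predicted coding gene of unstated function (ENSMUSG00000078576, chr4:121087340-121095704), fell, on few counts. Control mice held 8, 8.06, 47.9, 49 and 96 estimated counts on LFD and 0, 45.9, 48, 51 and 74.5 on HFD. In knockout mice the counts were 0 in 4 libraries and 0.999 in 1 on LFD, and 0 in 4 libraries and 7 in 1 on HFD. The genotypes were apart on LFD, where the level was at least 12.7-fold lower, and overlapped on HFD through control HFD replicate 15. The adjusted p was 0.06908 (edgeR), and the call was kept in 4 of the 20 fits that left out 1 library, those without control LFD replicate 2, control LFD replicate 5, control HFD replicate 15 or knockout HFD replicate 21. It was lost as well with no filter on low values, with limma on log2(TPM + 1), with the newer quasi-likelihood method and with length offsets. The model shares 87.4% of aligned bases with its neighbour *Gm12888*, which had a log2 fold change of -2.10 on LFD and -0.28 on HFD (adjusted p = 0.6651 over both diets, edgeR), so the split of reads between them is uncertain.

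*Clca2*, a gene of the calcium-activated chloride channel regulator family (ENSMUSG00000028262, chr3:144459523-144482458, minus strand), rose, with its call near the limit. It was at 30.4, 36.2, 41.1, 42.4 and 49.1 TPM in controls against 39.5, 49.4, 57, 74.0 and 86.0 TPM in knockouts on LFD. On HFD it was at 11.1, 16.9, 19.4, 20 and 22.1 TPM in controls against 34.3, 38.7, 47.8, 53.4 and 67.0 TPM in knockout mice. The genotypes were apart on HFD and overlapped on LFD. The fit over both diets gave a log2 fold change of 0.96 (SE 0.184, edgeR adjusted p = 0.0913), and the call was kept in 5 of 20 fits that left out 1 library, those without control LFD replicate 2, knockout LFD replicates 6, 7 or 10, or control HFD replicate 15. It was lost as well in both limma fits, with length offsets and without the diet term. Its tandem neighbour *Clca1*, 35.6 kb away and 93.6% identical over the aligned transcript, had a log2 fold change of 0.87 that was not called (adjusted p = 0.344, edgeR). *Clca1* averaged 4.05 ± 1.2 against 9.44 ± 2.31 TPM on LFD and 2.16 ± 0.938 against 3.20 ± 0.948 TPM on HFD (control against knockout, SD, n = 5).

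Next to the 6 called genes, the 14 genes of smallest p with the same direction on each diet were not called, *Rfc4* at an adjusted p of 0.1543 and the other 13 at 0.344 (edgeR). Besides *Rfc4* and *Clca1*, those with a level in most libraries were *Olfml3* and *Pmepa1*, with log2 fold changes of -0.41 and -0.59, and *Tyms*, *Col27a1* and *Gjb2*, with 0.41, 0.57 and 2.13. *Tyms* encodes thymidylate synthase and *Col27a1* a fibrillar collagen chain. *Pmepa1*, a gene of TGF-beta signalling, averaged 50.2 ± 13.3 against 34.5 ± 11.5 TPM on LFD and 225 ± 21.5 against 154 ± 42.3 TPM on HFD (control against knockout, SD, n = 5). *Gm16811*, an immunoglobulin variable segment, ranged from 0 to 8.48 TPM over control libraries and from 0 to 608 TPM over knockout libraries. *Gjb2*, the gene of connexin 26, was highest in knockout LFD replicate 7 (10.4 TPM) and knockout HFD replicate 18 (3.99 TPM), the libraries with hair keratin transcripts, and its log2 fold change without them was 1.10 (adjusted p = 0.7603, edgeR).

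**Figure D3:**
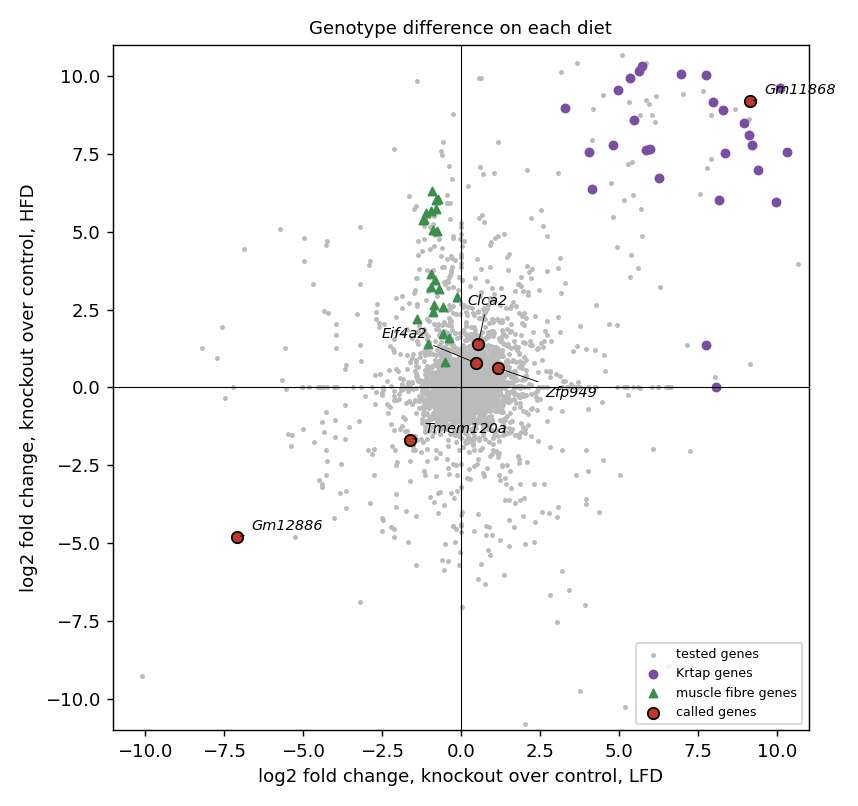
Log2 fold change of knockout over control on LFD (horizontal) and on HFD (vertical) for 15570 tested genes, with 4 outside the axes. Called genes lie where both are positive or both negative, muscle fibre genes lie at negative values on LFD and positive values on HFD, and most *Krtap* genes lie at high values on both diets through 1 library per diet.

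The other 6 of these 14 were hair keratin genes or lay among them, and their values came from 1 library of each diet. *Krtap11-1*, *Krtap4-7*, *Krtap3-2* and *Krt86* encode keratins or keratin-associated proteins of the hair shaft, and *Gm11595* and *Gm10228* are predicted genes. *Krtap11-1* was at 43.9 TPM in knockout LFD replicate 7 and 10.6 TPM in knockout HFD replicate 18, and at 0.0168 TPM or less in the other 18 libraries. Over all 53 *Krtap* genes, a list added after the data were seen, the summed level was 894 TPM in knockout LFD replicate 7 and 529 TPM in knockout HFD replicate 18, and 7.91 TPM or less elsewhere. Of the 28 tested, 27 were higher on both diets and none was called. Without both libraries none of them reached the filter on low values, and 4 genes were called over all genes, *Clca2* and *Gm12886* being lost (adjusted p = 0.1048 and 0.227, edgeR).

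The same direction on each diet was seen for 59.6% of all genes tested, 27.6% higher and 32% lower on both. When each diet was fitted on its own libraries, 668 genes had an unadjusted p under 0.05 on HFD, of which 63.3% had the same sign on LFD, against 59.5% of all 14832 genes in both fits. On LFD 73 of the 668 (10.9%) also had an unadjusted p under 0.05 with the same sign, and 9 had the opposite sign. Of all genes in both fits, 4.76% had such a p on LFD. That share counts either sign, so it is not a like measure to the 10.9%. The single-diet fits share no library, but each includes a knockout library with hair keratin transcripts. The overlap without those libraries was not tested.

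Genes of white adipocytes were mostly lower on both diets by small amounts, and none was called. Of 24 tested, 18 (75%) were lower and 1 higher on both diets, against 32% and 27.6% of all genes tested. The median log2 fold change was -0.20 against -0.01 for all genes tested. It was -0.29 on LFD and -0.17 on HFD, and the HFD median was -0.04 without control HFD replicate 11. The genes of smallest p were *Plin4*, a droplet coat protein, *Tusc5*, a regulator of GLUT4 traffic, *Cidec*, which drives droplet fusion, and *Aqp7*, a glycerol channel. Their log2 fold changes were -0.44, -0.37, -0.39 and -0.25 (adjusted p between 0.5422 and 0.6571, edgeR). *Plin4* averaged 218 ± 44.3 against 171 ± 53.3 TPM on LFD and 407 ± 69.3 against 305 ± 96.3 TPM on HFD (control against knockout, SD, n = 5), and the genotypes overlapped on both diets. The summed level of the list lay between 26336 and 35368 TPM in controls against 23589 and 30234 TPM in knockouts on LFD, and between 35964 and 49525 against 31015 and 46431 TPM on HFD. The group medians of this sum were 32404 against 25020 TPM on LFD and 40885 against 41891 TPM on HFD (control against knockout).

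The other lists of adipocyte function held no called gene. Beside the counts that follow, 32% of all genes tested were lower and 27.6% higher on both diets. Of 18 genes of lipolysis and lipid droplets, 14 were lower and 1 higher on both diets (median -0.26). Their HFD median was -0.21, and -0.05 without control HFD replicate 11. Of 17 adipogenic transcription factor genes, 13 were lower and 1 higher (median -0.14). Their HFD median was -0.09, and -0.03 without knockout HFD replicate 18. The synthesis list (fatty acids and triglyceride, 23 genes) had 10 members lower and 4 higher on both diets (median -0.12, 0.05 without control LFD replicate 4), among them *Lpin1*, a phosphatidate phosphatase, at -0.24 (adjusted p = 0.6571, edgeR). Of 20 genes of fatty acid oxidation, 7 were lower on both diets (35%, near the 32% of all genes) and none higher. Their median was -0.39 on LFD and 0.10 on HFD. The median on LFD was -0.20 without control LFD replicate 4, and that on HFD was -0.10 without knockout HFD replicate 17. *Cpt1a*, which brings fatty acids into mitochondria, was at -0.20 and *Etfa*, an electron transfer flavoprotein subunit, at -0.22 (adjusted p = 0.613 and 0.6657, edgeR). Of 21 genes of insulin signalling and glucose uptake, 12 were lower and 1 higher on both diets (median -0.07), with *Hk2* (hexokinase 2) at -0.29 and *Irs2* (insulin receptor substrate 2) at -0.49 (adjusted p = 0.613 and 0.6282, edgeR). *Klf9*, a transcription factor of adipogenesis, was at -0.21 (adjusted p = 0.6684, edgeR). The 14 genes of brown and beige fat had a median of -0.45 on LFD and 0.52 on HFD. Without knockout HFD replicate 17, whose summed level was 831 TPM against 121 to 281 TPM in the other knockouts on HFD, the median was 0.24 on HFD and the median over both diets turned from 0.26 to -0.20. In this list was *Cited1*, a marker of beige fat, at 1.41 (adjusted p = 0.5157, edgeR).

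**Figure D4:**
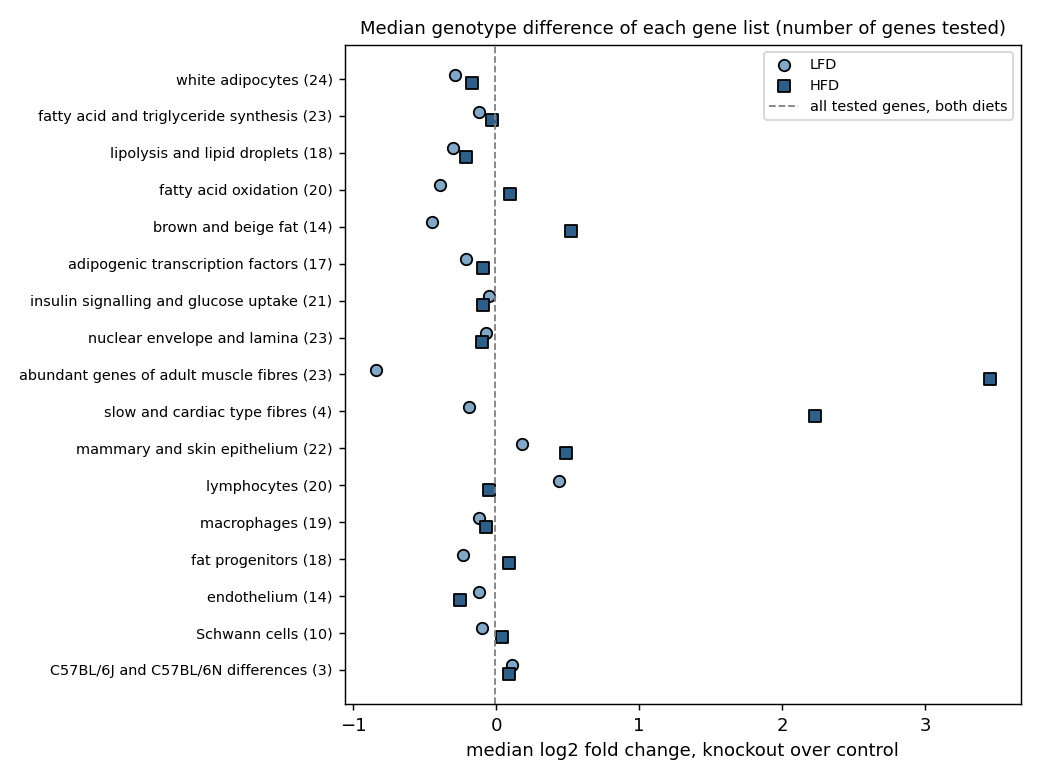
Median log2 fold change of knockout over control on LFD (circles) and HFD (squares) for 17 gene lists, with the number of genes tested in brackets and the median of all genes as a dashed line. White adipocyte and lipolysis lists lie below the line on both diets. So do other lists, among them endothelium (-0.12 on LFD and -0.25 on HFD) and macrophages. Muscle fibre genes lie at -0.84 on LFD and 3.45 on HFD.

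Among 23 genes of the nuclear envelope and lamina, *Tmem120a* itself was the 1 called gene. Of the others, *Lmnb1* (lamin B1) and *Tmpo* (thymopoietin, a lamina-associated protein) had log2 fold changes of 0.60 and 0.25, and *Tmem43*, an inner nuclear membrane protein, -0.33 (adjusted p = 0.4701, 0.6651 and 0.5869, edgeR). Of the whole list 11 were lower (47.8%) and 3 higher (13%) on both diets, against 32% and 27.6% of all genes tested. The median was -0.07.

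Muscle fibre genes did not share a direction between the diets. None of the 23 tested was higher on both diets or lower on both, with a median of 3.45 on HFD and -0.84 on LFD. The summed level was 84.6 to 170 TPM in controls against 162 to 2143 TPM in knockouts on HFD. On LFD it was 114, 153, 262, 421 and 4898 TPM in controls against 101, 169, 728, 1074 and 1589 TPM in knockouts, so that the highest library of all was control LFD replicate 5. Without that library the median on LFD was 1.64. *Tnnt3*, fast skeletal troponin T, was at 6.06 on HFD and -0.73 on LFD, and *Myh4*, a fast myosin heavy chain, at 6.02 and -0.78 (adjusted p over both diets 0.769 and 0.7979, edgeR). *H19*, an imprinted noncoding RNA gene, was at 1.70 on HFD and -0.36 on LFD (adjusted p over both diets 0.6887, edgeR). These 3 genes were chosen after their values were seen, and none was called for a difference between the diets (edgeR). The 4 slow or cardiac fibre genes tested had medians of 2.23 on HFD, which fell to 0.34 without knockout HFD replicate 19, and -0.19 on LFD, which was 0.57 without control LFD replicate 3.

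**Figure D5:**
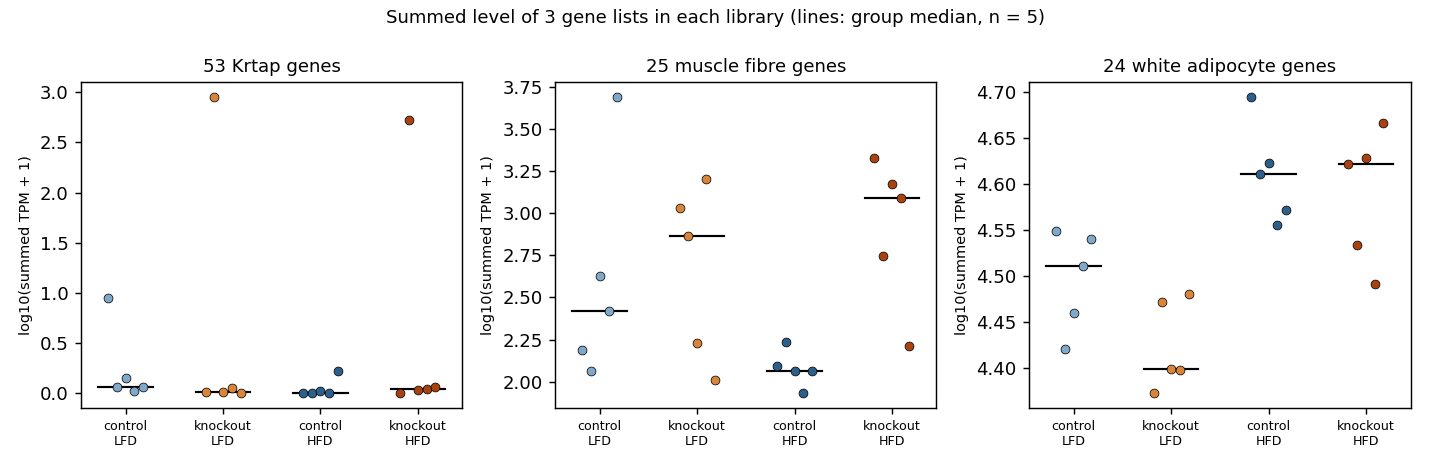
Summed TPM of 53 *Krtap*, 25 muscle fibre and 24 white adipocyte genes in each of the 20 libraries, as log10(sum + 1), with a line at the group median (n = 5). *Krtap* transcripts are high in 1 knockout library of each diet, and fibre transcripts are highest in 1 control library on LFD.

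Markers of other cell types showed how the tissue samples differed, and none of these genes was called. Of 22 genes of mammary and skin epithelium, 13 were higher (59.1%) and 6 lower (27.3%) on both diets, with a median of 0.37. Of all genes tested, 27.6% were higher and 32% lower on both diets. An unadjusted p under 0.05 was reached by 9 of the 22, beside 7.44% of all genes tested. The median was 0.24 without knockout HFD replicate 18 and 0.16 without both libraries with hair keratin transcripts. The HFD median was 0.49, and 0.15 without knockout HFD replicate 18, and the LFD median was 0.18, and -0.02 without knockout LFD replicate 9. *Krt15*, *Trp63* and *Krt14*, genes of basal epithelial cells, were at 1.59, 0.55 and 0.52, and *Krt79*, a keratin of skin appendages, at -0.83 (adjusted p between 0.4593 and 0.5992, edgeR). *Krt15* was at 0.690 to 2.21 TPM in controls against 1.31 to 5.49 TPM in knockouts on LFD, and at 0.0275 to 0.702 against 0.775 to 3.62 TPM on HFD. The summed level of the list lay between 532 and 769 TPM in controls against 327 and 746 TPM in knockouts on LFD, and between 338 and 688 against 400 and 786 TPM on HFD. The part of such cells in the called genes was not tested.

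The counts that follow stand beside 27.6% of all genes tested higher and 32% lower on both diets. Of 14 endothelial genes 10 (71.4%) were lower and none higher on both diets (median -0.17). Of 19 macrophage genes 9 (47.4%) were lower and 2 higher (median -0.10). Of 18 genes of fat progenitors 4 (22.2%) were lower and 1 higher on both diets (median -0.06). *F3* (tissue factor) was at -0.47 and *Bmp7* at 0.44 (adjusted p = 0.4983 and 0.6387, edgeR). Of 20 lymphocyte genes 7 (35%) were higher and none lower (median 0.17, 0.02 without control LFD replicate 1), with a median of 0.44 on LFD and -0.05 on HFD. Their summed level was 175 to 640 TPM in controls against 494 to 1469 TPM in knockouts on LFD, and 396 to 1107 against 561 to 1007 TPM on HFD, so that the genotypes overlapped on both diets. Of 10 Schwann cell genes 3 were higher and 5 lower (median -0.07), with *S100b* at -0.55 (adjusted p = 0.6473, edgeR). The 3 tested genes known to differ between C57BL/6J and C57BL/6N, *Nnt*, *Wdfy1* and *Cyfip2*, had log2 fold changes of 0.11, -0.08 and 0.25 (adjusted p between 0.8365 and 0.8679, edgeR).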

How the data were processed

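RNA of mouse iWAT was sequenced as 20 ribosome-depleted, stranded libraries. The authors quantified read pairs per transcript with Salmon 0.13.1 on Ensembl NCBIM37 (mm9), and the submitters' processing notes also name STAR 2.5.3. They deposited estimated counts without normalization between libraries and TPM values, each library scaled to a fixed total. Whether the STAR alignment entered these values is not given in the sources used here.

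Of 96533 transcripts 94334 were matched to GENCODE vM1 of the same build and summed per gene (36611 genes). Unmatched transcripts took 0.377% to 0.581% of counts. Gene sums of estimated counts were rounded and genes averaging 0.5 TPM or more over the 20 libraries were tested with edgeR 4.0.16 (quasi-likelihood, TMM scaling, genotype plus diet, all 20 libraries) at a Benjamini-Hochberg adjusted p under 0.1. Directions on each diet came from a model with 4 group means. Fold changes are log2 of knockout over control. The methods name tximport and DESeq2, used here as alternatives (length offsets; DESeq2 1.42.0), as was limma 3.58.1 on log2(TPM + 1) or log2(TPM + 0.1). For single values, genotype was permuted within diets over all 63504 assignments (exact, two-sided, on log2(TPM + 1)). Levels compared between genes are TPM, which are per length. A group with at most 3 counts in each library was taken as at the floor, and bounds cover counting error only. Fits were tested on simulated data (R 4.3.3, Python 3.11.15, Biopython 1.88). The labels give no batch. The labels number the libraries without saying that each came from a separate mouse, so p-values measure the spread between these libraries, which may be technical.

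Named genes were the called genes, those of next smallest p up to 20, *Tmem120a*, *Tmem120b*, list members of smallest p and called genes within 1 Mb of these or of *Adipoq*. Some genes are not reported here. Members, lists and tests were chosen with earlier results of these data known. The 17 lists covered white adipocytes, fatty acid and triglyceride synthesis, lipolysis and lipid droplets, fatty acid oxidation, brown and beige fat, adipogenic transcription factors, insulin signalling, nuclear envelope, muscle fibres, slow fibres, epithelium, endothelium, macrophages, lymphocytes, Schwann cells, fat progenitors and differences between C57BL/6 substrains.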

Additional observations from a re-analysis of the deposited data

Results flagged for a closer look

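The called genes, those of next smallest p, *Tmem120b* and 2 list sums were checked for libraries that stood apart. The other named genes, such as further list members, were not checked. Among 79 groups of 5 libraries, 24 held a library whose gap to its nearest neighbour took more than 0.71 of the range of the group. For normally distributed values about 1 in 20 groups would hold such a library. That share does not apply here, because 1 library above others at 0 gives a share of 1 by construction. The *Krtap* genes also passed the filter on low values only through knockout LFD replicate 7 and knockout HFD replicate 18. In knockout LFD replicate 7 this share was 1 for *Krtap11-1*, *Krtap4-7*, *Gm11595*, *Gm10228*, *Krtap3-2* and the *Krtap* sum, 0.996 for *Krt86* and 0.813 for *Gm16811*. In knockout HFD replicate 18 it was 1 for *Krtap11-1*, *Krtap4-7*, *Gm10228*, *Krtap3-2* and the *Krtap* sum, 0.998 for *Gm11595*, 0.988 for *Krt86* and 0.94 for *Gjb2*. The *Krtap* sum was also highest in control LFD replicate 1 (0.955, at 7.91 TPM) and control HFD replicate 15 (0.937, at 0.676 TPM).

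For called genes, *Tmem120a* was highest in control HFD replicate 11 (0.729, at 196 TPM) and *Gm12886* in knockout HFD replicate 21 (1, the only knockout library on HFD with a count). *Clca1* was highest in control HFD replicate 13 (0.744), *Olfml3* in control LFD replicate 2 (0.858) and *Pmepa1* in knockout LFD replicate 8 (0.845). The fibre gene sum was highest in control LFD replicate 5 (0.936, at 4898 TPM).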

How the results depend on the processing

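Across both diets 6 genes were called, all 6 with the same direction on each diet. The count was 32 with DESeq2, 43 with DESeq2 and no filter on low values (added after seeing the data), 3 with limma on log2(TPM + 1) and 2 with length offsets, and every gene called in these fits had the same direction on each diet. It ranged from 4 to 9 when 1 library was left out. *Gm11868*, *Tmem120a*, *Zfp949* and *Eif4a2* were called in all 20 of those fits. With length offsets *Gm11868* and *Eif4a2* were kept. The 3 genes called on HFD became 82 with DESeq2, 132 with DESeq2 and no filter, 5 with limma on log2(TPM + 1) and 1 with HFD fitted alone, and 1 to 6 when 1 library was left out. They were 1 without control HFD replicates 11, 13, 14 or 15 or knockout HFD replicates 17 or 18, and 6 without knockout HFD replicate 21. The 2 genes called on LFD became 27, 37, 1 and 1 under the same settings and 2 to 3 with 1 library left out. For a difference between the diets, 0 genes became 17 with DESeq2 and 30 without a filter, and stayed 0 in the leave-one-out fits. The log2 fold change of *Tmem120b* changed sign without control LFD replicate 4 (0.09) and without control HFD replicate 11 (0.05), with a range of -0.24 to 0.09 over the leave-one-out fits, and that of *Cyb5r4* in both limma fits (0.08 in each) and with length offsets (0.04). The cause was not tested. No paired analysis was possible because the groups share no replicate number. Genes at a few counts, such as *Gm12886*, are limited by depth.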

Other observations

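Of the 32 genes that DESeq2 called across both diets, edgeR did not call 26. The 2 of these with the smallest DESeq2 p rested on few libraries. *Ccl21c*, a chemokine gene with close copies, was above 3 counts in 3 control libraries on LFD, at up to 5.98 TPM, and 2 on HFD, at up to 6.33 TPM, and at 0 in every knockout library (adjusted p = 0.3497, edgeR). *RP24-327G7.3*, a pseudogene, was at 0 in every control library and above 3 counts in 2 knockout libraries on LFD, at up to 2.42 TPM, and 1 on HFD, at 6.82 TPM (adjusted p = 0.4593, edgeR). Others were *Ctsj*, a cathepsin, with a log2 fold change of -2.75 in edgeR (adjusted p = 0.3496, edgeR) and *Rspo1*, a Wnt agonist, with 1.53 (adjusted p = 0.344, edgeR). These 4 were chosen after their values were seen. *Ctsj* was at 3.63 to 27.3 TPM in controls against 0.505 to 12.4 TPM in knockouts on LFD, and at 11.1 to 151 against 1.05 to 23.8 TPM on HFD.

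DESeq2 also called *Gsta4*, *Bckdhb* and *Fxyd2*, which like *Zfp949* and *Ptplad1* lie on chromosome 9 and were named after their values were seen. Of its 32 calls 5 were on chromosome 9 (859 genes tested), 5 on chromosome 4 (1011) and 4 on chromosome 3 (765), of 15574 genes tested. With edgeR, an unadjusted p under 0.05 was reached by 8.85% of genes on chromosome 9 and 7.44% of all genes. A higher share was found on 4 chromosomes. The chromosome 9 genes named here spread from chr9:45207957 (*Fxyd2*) to chr9:88465924 (*Zfp949*). *Gsta4*, a glutathione transferase gene, and *Bckdhb*, a gene of branched-chain amino acid breakdown, had log2 fold changes of 0.57 and 0.49 in edgeR (adjusted p = 0.344 and 0.3496, edgeR). *Fxyd2*, a regulator of the sodium pump, was at -0.67 (adjusted p = 0.3496, edgeR). Within 1 Mb of *Zfp949* 14 other genes were tested, of which 4 had an unadjusted p under 0.05 and none was called, among them *Nt5e* at 0.47 and *Tbx18* at -0.49 (adjusted p = 0.5869 and 0.5768, edgeR). *Cyb5r4* lies 1.47 Mb from *Zfp949* on the same chromosome. Within 1 Mb of *Tmem120a* 32 other genes were tested and none was called.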
